A study of Schizosaccharomyces pombe with 36 samples.

Results

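The region described here is the left end of chromosome II of fission yeast (Schizosaccharomyces pombe), taken as all 200 bins of 300 bp between positions 1 and 60000 of chr2. The bins were chosen by position alone, out of 41815 bins covered in all 32 libraries, and every one of the 200 passed the minimum used for testing. Polymerase usage sequencing (Pu-seq) was used: strains carry an altered DNA polymerase delta (Pol δ, catalytic subunit gene cdc6) or epsilon (Pol ε, gene cdc20) that builds ribonucleotides into new DNA, alkali breaks the DNA at those ribonucleotides, and the ends of the fragments are counted on each strand.

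The 8 conditions are libraries labelled stn1-226 rif1Δ (for rif1 deletion), stn1-226, rif1 deletion and wild type, each at 34 °C and at 25 °C, with 2 Pol δ and 2 Pol ε libraries apiece. The stn1-226 allele is temperature sensitive. All strains have a mutant or deleted rnh201, a subunit of the RNase H2 that removes such ribonucleotides: the wild type is listed with rnh201-RED, the rif1 deletion (rif1::BSD) with rnh201::kan, and both stn1-226 genotypes with rnh201Δ::hphNT1. Wild type and rif1 deletion carry ade6-704, leu1-32 and ura4-D18. The stn1-226 genotypes carry leu1-32 and ura4- with polymerase alleles placed between lox sites, so a difference from wild type is also a difference of strain background. The Pol δ allele is written cdc6-L591G in the wild-type and rif1 deletion labels and I591G in the stn1-226 ones. The growth protocol also lists cdc6-L591M. The Pol ε allele is cdc20-M630F. Pol δ and Pol ε libraries come from different strains, and the 2 libraries of a group come from 1 strain, with no statement in the labels on whether they are separate cultures. The p-values therefore measure only the spread between these libraries, which may be technical. The 4 taz1 deletion libraries do not cover the region and were not used.

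At a replication fork the leading strand is mainly the work of Pol ε and the lagging strand that of Pol δ, so the strand that holds the ends tells which way forks moved. Stn1, with Ten1, binds telomeric DNA and takes part in filling in the lagging strand at chromosome ends. Rif1 is a telomere-associated protein that also delays firing of many replication origins by bringing a phosphatase to them, and fission yeast subtelomeres are known as late-replicating, gene-poor regions with repeated sequence. S. pombe origins lie mostly between genes in stretches rich in A and T.

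The annotation places 19 protein-coding genes and 1 pseudogene here. From the end inward they include ftm5 and ftm6 (transmembrane proteins), SPBC1348.04 (a methyltransferase), SPBC1348.05 (a transporter), SPBC1348.08C (a glycoprotein), SPBC1348.09 (a dehydrogenase), SPBC1348.10C (a phospholipase), SPBC1348.12 (a transcription factor), ght7 (a hexose transporter), SPBPB8B6.02C (a urea transporter), grt1 (a transcription factor) with fah1 (an acetamidase) inside its span, SPBPB8B6.05C (an L-asparaginase), fex2 (a fluoride exporter) and eno102 (an enolase). The bins averaged 67.1% A+T, against 63.9% over all bins, and 105 of the 200 (52.5%) had a near-identical copy elsewhere in the assembly, against 4.08% of all bins. Positions 1 to 10149 are 100% identical to an inverted copy at the right end of chromosome II, and positions 10180 to 20843 are 99.6% identical to one there. Positions 14527 to 29492 have a copy at the left end of chromosome I that is also 99.6% identical. Ends in copied bins may come from either place. The bins between 30 and 50 kb from the end had no such copy, and of the 33 bins beyond 50 kb 7 had one.

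GGTTAC, the motif of fission yeast telomere repeats, occurred as a pair within 200 bp in 4 of the 200 bins (2.0%), against 0.56% of all bins, searched on both strands. GTGGGGG, searched alike, occurred in 1 bin (0.5%), against 0.58%. The 3 stretches that hold the pairs are shown, with the motif or its reverse complement in capitals, because Rif1 and other telomere proteins are known to act at such repeats. They are plus-strand RefSeq sequence of assembly ASM294v3. A match is a description of the letters and not a binding site.
chr2:33434-33539, in the pseudogene SPBC1348.11: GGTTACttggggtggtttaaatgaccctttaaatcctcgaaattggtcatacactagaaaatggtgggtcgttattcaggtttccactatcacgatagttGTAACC
chr2:54252-54420, at the 3′ part of SPBPB8B6.05C: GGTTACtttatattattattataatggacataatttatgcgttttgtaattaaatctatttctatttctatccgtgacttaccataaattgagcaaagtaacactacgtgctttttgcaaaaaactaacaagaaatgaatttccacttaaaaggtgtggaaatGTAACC
chr2:58933-59099, in the coding gene eno102: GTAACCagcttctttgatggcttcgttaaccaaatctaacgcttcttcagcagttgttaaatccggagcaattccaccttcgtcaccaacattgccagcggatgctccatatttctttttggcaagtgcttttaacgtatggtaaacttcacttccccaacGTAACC

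The following 3 stretches of 300 bp are centred on places where fork direction switched in wild type, as described with the strand polarity results. Capitals mark runs of 10 or more bases made only of A and T, found by a search of the plus strand. Such runs occurred in 161 of the 200 bins (80.5%), against 65.2% of all bins.
chr2:24451-24750, between SPBC1348.08C and SPBC1348.09: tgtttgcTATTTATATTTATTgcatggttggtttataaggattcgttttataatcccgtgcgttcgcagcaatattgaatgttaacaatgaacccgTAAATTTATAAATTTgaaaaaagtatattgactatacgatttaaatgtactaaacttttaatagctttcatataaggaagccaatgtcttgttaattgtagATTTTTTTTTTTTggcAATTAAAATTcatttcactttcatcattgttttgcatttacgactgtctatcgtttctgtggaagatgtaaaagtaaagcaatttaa
chr2:31351-31650, between SPBC1348.10C and SPBC1348.11: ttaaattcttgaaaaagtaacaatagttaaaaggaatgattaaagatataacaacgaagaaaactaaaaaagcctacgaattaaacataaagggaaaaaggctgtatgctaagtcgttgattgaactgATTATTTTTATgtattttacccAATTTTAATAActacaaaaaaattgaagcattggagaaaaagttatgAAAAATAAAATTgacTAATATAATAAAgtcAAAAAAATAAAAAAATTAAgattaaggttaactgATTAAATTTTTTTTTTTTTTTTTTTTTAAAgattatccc
chr2:52651-52950, between grt1 and SPBPB8B6.05C: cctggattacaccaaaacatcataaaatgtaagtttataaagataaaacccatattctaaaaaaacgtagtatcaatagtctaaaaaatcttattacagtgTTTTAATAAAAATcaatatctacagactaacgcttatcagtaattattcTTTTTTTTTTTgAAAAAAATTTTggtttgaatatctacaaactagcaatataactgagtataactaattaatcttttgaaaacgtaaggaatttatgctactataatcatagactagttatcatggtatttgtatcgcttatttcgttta

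Libraries held 2045490 to 24104591 ends, with 9664 to 110503 of them in the 200 bins, and a median bin of 39 to 516 ends. The rif1 gene lay at 1.01 to 1.28 times the median bin in the libraries labelled stn1-226 rif1Δ, 1.08 to 1.42 in stn1-226, 0.00452 to 0.0405 in rif1 deletion and 1.03 to 1.22 in wild type. The labelled deletion was therefore seen in rif1 deletion and not in the libraries labelled stn1-226 rif1Δ, whose direction of change is given under that label. By the pattern of ends over the genome outside this region, pairs of Pol δ and Pol ε libraries fell into 3 classes: replicate 1 of every 34 °C condition with both replicates of rif1 deletion at 25 °C, replicate 2 of every 34 °C condition with 1 replicate each of the 3 other 25 °C conditions, and the remaining replicates. Replicates 1 and 2 at 34 °C are thus also the values within each class, whereas rif1 deletion and wild type at 25 °C share no class, so genotype and class cannot be told apart there from these libraries alone. Along chromosome II the 6 libraries of the remaining class, all at 25 °C, were least like the mean of the others (r between 0.423 and 0.516, where the other 26 had at least 0.655). Polarity at 25 °C was also fitted without replicate 2 of rif1 deletion and without replicate 2 of wild type, and calls lost in this way are named beside the result. Neither replicate is in the remaining class. Without its replicate 2, wild type at 25 °C rests on replicate 1, which is in that class (r = 0.509 in Pol δ and 0.464 in Pol ε). That fit is thus no check against the remaining class.

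The level of ends, meaning ends of both strands in a bin over the median bin of the same library, was close to that of the genome across the 60 kb. In the libraries labelled stn1-226 rif1Δ the mean over the region was 1.05 and 1.05 (Pol δ) and 1.04 and 0.939 (Pol ε) at 34 °C, and 1.21 and 1.24 (Pol δ) and 0.896 and 0.98 (Pol ε) at 25 °C. In stn1-226 it was 0.898 and 0.926 (Pol δ) and 0.978 and 0.969 (Pol ε) at 34 °C, and 0.834 and 0.869 (Pol δ) and 1.12 and 1.25 (Pol ε) at 25 °C. In rif1 deletion it was 1.01 and 1.08 (Pol δ) and 0.978 and 0.913 (Pol ε) at 34 °C, and 1.13 and 1.18 (Pol δ) and 0.985 and 0.953 (Pol ε) at 25 °C. In wild type it was 1.01 and 0.894 (Pol δ) and 1.20 and 1.11 (Pol ε) at 34 °C, and 0.927 and 0.897 (Pol δ) and 1.33 and 1.10 (Pol ε) at 25 °C. No condition stood apart with both polymerases pooled, and the 4 libraries of every condition overlapped those of every other.

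**Figure D1:**
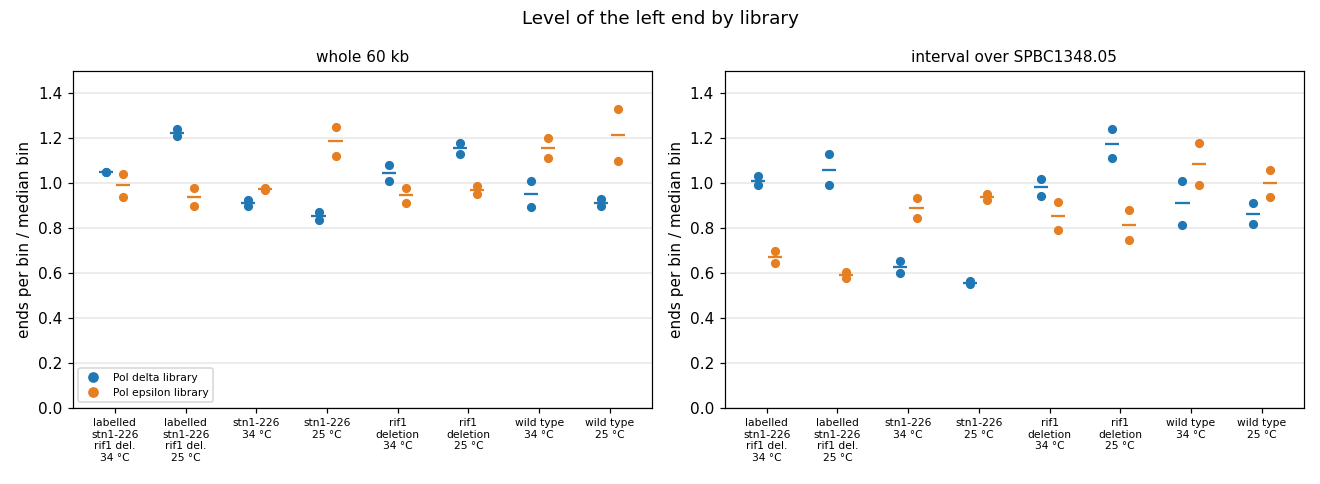
Mean level of ends over the 200 bins in each library, and over the interval from 12901 to 15300 that covers most of SPBC1348.05, on a linear axis in multiples of the library's median bin, by condition and polymerase, from stn1-226 rif1Δ on the left to wild type on the right. Points are libraries and dashes the mean of 2. Over the 200 bins every library lies between 0.834 and 1.33, and Pol δ points lie above Pol ε points in the libraries labelled stn1-226 rif1Δ and in rif1 deletion, and below them in stn1-226 and wild type.

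Summed over the 60 kb and tested with edgeR's quasi-likelihood test over 206 blocks of that size, the region was called in none of the 9 comparisons at an adjusted p of 0.05. The percentage of all blocks called was 1.94 for stn1-226 against wild type at 34 °C, 0.485 for the same at 25 °C, 0.971 for rif1 deletion against wild type at 34 °C and 0 in the others. The log2 difference was 0.09 and 0.11 (34 and 25 °C) for the libraries labelled stn1-226 rif1Δ against stn1-226 (edgeR adjusted p = 0.998 each), and -0.15 and -0.06 for stn1-226 against wild type (edgeR adjusted p = 0.299 and 0.996). It was -0.07 and 0.03 for rif1 deletion against wild type (edgeR adjusted p = 0.962 and 0.894). Between 34 °C and 25 °C it was -0.06 in stn1-226 and 0.03 in wild type, and the difference between these was -0.08 (edgeR adjusted p = 0.99). The standard error was 0.05 in each except the last, where it was 0.0709. For stn1-226 at 34 °C the adjusted p was 0.0133 with the class as a block and 0.0232 with only the 2 conditions in the fit, at the same difference of -0.15. The share of all blocks called in these alternative fits is not given here, so whether those calls are particular to the region cannot be told.

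By distance from the end the level moved little. Over the 32 libraries its median was 1.08 in the outermost 10 kb, which carries SPBC1348.15, SPBC1348.01 and ftm5, 0.885 between 10 and 20 kb, from ftm6 to SPBC1348.07, and 1.03 between 20 and 30 kb. It was 1.11 between 30 and 40 kb, where SPBC1348.12 and ght7 lie, 0.998 between 40 and 50 kb, and 0.952 between 50 and 60 kb. The lowest median was thus in the 10 to 20 kb band and the highest in the 30 to 40 kb band. In the libraries labelled stn1-226 rif1Δ the outermost 10 kb averaged 1.08 ± 0.0746 at 34 °C and 1.11 ± 0.163 at 25 °C, against 0.958 ± 0.0283 and 0.99 ± 0.186 in stn1-226, 1.06 ± 0.0877 and 1.19 ± 0.167 in rif1 deletion, and 1.17 ± 0.256 and 1.10 ± 0.212 in wild type (SD, n = 4 libraries). These ranges overlap.

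**Figure D2:**
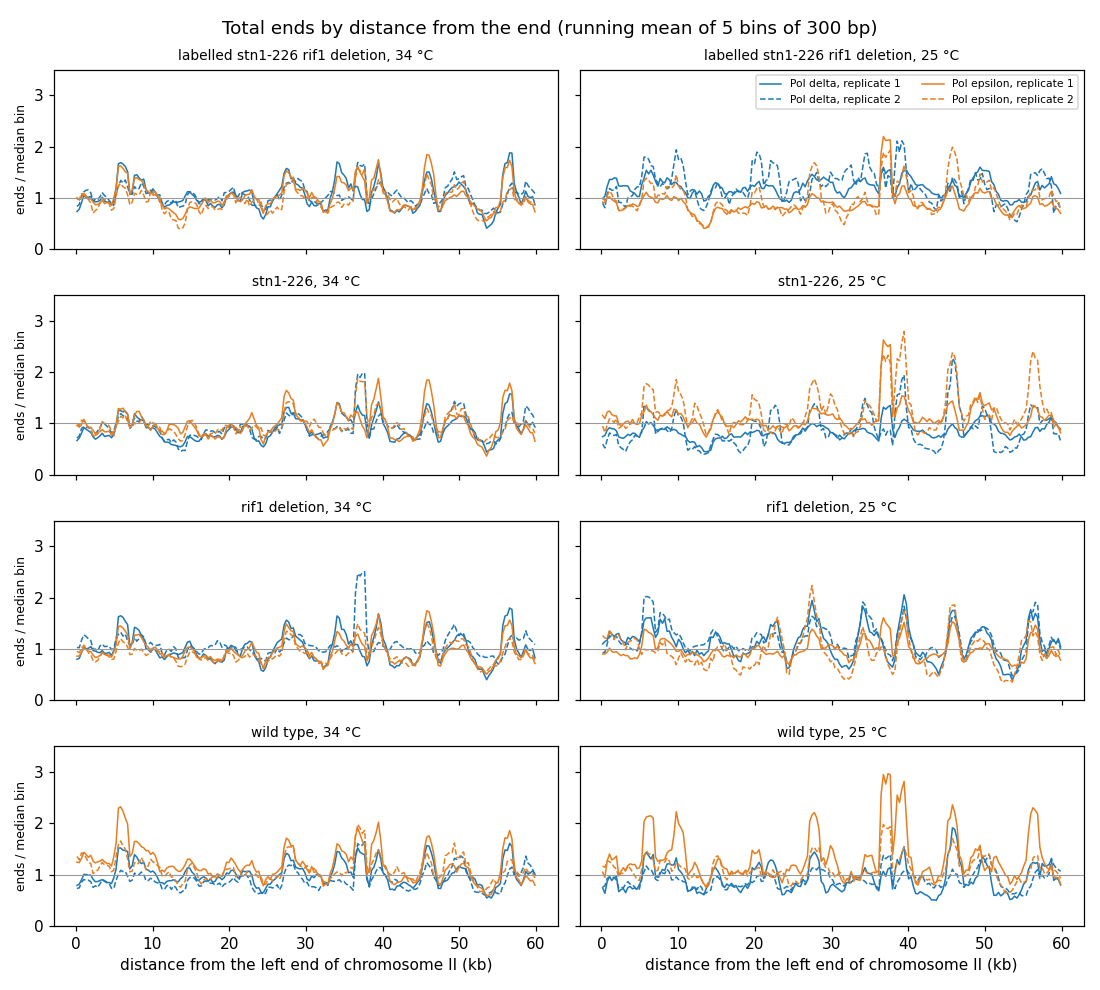
Level of ends against distance from the left end in kb, in multiples of the median bin, with stn1-226 rif1Δ at the top and wild type at the bottom. Each panel is 1 condition and each line the running mean over 5 bins of 1 library. The lines run around 1 with local peaks, with the lowest median over libraries (0.885) between 10 and 20 kb and the highest (1.11) between 30 and 40 kb, where the bin at 36901 to 37200 averaged 3.62.

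Over single bins, the mean level over libraries ran between 0.648 (5th percentile) and 1.65 (95th), with a median of 0.942, against 0.702, 1.67 and 1.04 over all bins. The lowest bin was 52801 to 53100, which lies between grt1 and SPBPB8B6.05C at one of the places whose sequence is shown, with a mean of 0.552. Its 4 libraries had medians of 0.519 and 0.661 (34 and 25 °C) in the libraries labelled stn1-226 rif1Δ, 0.479 and 0.7 in stn1-226, 0.449 and 0.411 in rif1 deletion and 0.601 and 0.509 in wild type. The highest was 36901 to 37200, just inward of SPBC1348.12, with a mean of 3.62. There the medians of 4 libraries were 3.21 and 4.21 (34 and 25 °C) in the libraries labelled stn1-226 rif1Δ, 3.29 and 4.44 in stn1-226, 2.49 and 1.26 in rif1 deletion and 3.92 and 4.06 in wild type. At 25 °C the libraries ran between 1.04 and 3.3 in rif1 deletion and between 2.65 and 8.64 in wild type. The lowest median was thus in rif1 deletion at 25 °C, and the ranges overlap.

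Of the 200 bins, 1 was called in 1 of the 9 comparisons and 0 in the other 8. In rif1 deletion against wild type at 25 °C, where 0.0622% of all bins were called, the bin at 21301 to 21600, beside SPBC1348.08C, stood at 1.49 and 1.18 (Pol δ) and 0.843 and 1.74 (Pol ε) in rif1 deletion. In wild type it stood at 0.694 and 0.64 (Pol δ) and 0.564 and 0.653 (Pol ε). All 4 libraries of rif1 deletion were above all 4 of wild type, by 1.07 log2 (SE 0.205, edgeR adjusted p = 0.0459). The bin is 1 of the 105 with a copy elsewhere. The call was lost with the class as a block (0.70 log2, edgeR adjusted p = 0.542) and without any one of WT Pol δ 1, WT Pol δ 2, WT Pol ε 1, rif1 deletion Pol δ 1 or rif1 deletion Pol ε 2 (0.74 to 1.09 log2, edgeR adjusted p between 0.0511 and 0.413), so it rests on few libraries. Among the other comparisons the share of all bins called was 0.0837% for stn1-226 against wild type at 34 °C, 0.105% for the same at 25 °C, 0.0335% for rif1 deletion against wild type at 34 °C and 0 elsewhere. At an unadjusted p under 0.05, 65 of the 200 bins (32.5%) passed in rif1 deletion against wild type at 25 °C, against 25.3% of all bins. The next highest count was 18 (9%) in stn1-226 at 34 °C against 25 °C, against 10.6% of all bins, and the other 7 comparisons had 0 to 11. For stn1-226 against wild type it was 8 (4%) at 34 °C, against 0.552% of all bins, and 7 (3.5%) at 25 °C, against 1.77%. For the libraries labelled stn1-226 rif1Δ against stn1-226 at 25 °C it was 8 (4%), against 0.949%. Wild type between temperatures had 11 (5.5%), against 3.18%. The remaining comparisons had 0, against 0.227 to 0.364% of all bins. DESeq2 called 32 of the 200 bins in rif1 deletion against wild type at 25 °C, where it called 11.6% of all bins.

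The bins with the lowest p where none was called are given as values. They were 16501 to 16800 in SPBC1348.06C and 21001 to 21300 beside SPBC1348.07 for the libraries labelled stn1-226 rif1Δ against stn1-226 at 34 °C (0.28 and 0.39 log2), and 20701 to 21000 and 21601 to 21900 at 25 °C (0.54 and 0.46 log2), all with an adjusted p of 1 from edgeR. For stn1-226 against wild type they were 14401 to 14700 in SPBC1348.05 and 12001 to 12300 at the start of SPBC1348.04 at 34 °C (-0.46 and -0.48 log2), and 21001 to 21300 and 3001 to 3300 at 25 °C (-0.61 and -0.55 log2), with an edgeR adjusted p of 1. For rif1 deletion against wild type at 34 °C they were 21901 to 22200 and 21001 to 21300 (-0.41 and -0.29 log2). Between 34 °C and 25 °C they were 15601 to 15900 and 53101 to 53400 in stn1-226 (-0.73 and -0.83 log2, edgeR adjusted p = 0.323 and 0.344), and 55501 to 55800 and 31201 to 31500 in wild type (-0.73 and 0.74 log2). For the difference between those temperature effects they were 4201 to 4500 and 21601 to 21900 (-0.62 and 0.39 log2). Several of these bins lie between SPBC1348.07 and SPBC1348.08C, and none passed the threshold.

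The ratio of the Pol δ level to the Pol ε level was, in the libraries labelled stn1-226 rif1Δ, 1.01 and 1.12 at 34 °C and 1.35 and 1.27 at 25 °C, and 0.918 and 0.956 at 34 °C and 0.745 and 0.695 at 25 °C in stn1-226. It was 1.03 and 1.18 at 34 °C and 1.15 and 1.24 at 25 °C in rif1 deletion, and 0.842 and 0.805 at 34 °C and 0.697 and 0.815 at 25 °C in wild type. All 8 ratios of the conditions with a labelled rif1 deletion were above 1 and all 8 of the others below it. The 60 kb at the right end of chromosome I had the same split, except in replicate 1 of the libraries labelled stn1-226 rif1Δ at 34 °C. There the level was 1.08 in Pol δ and 1.11 in Pol ε, so the split is not particular to the left end of II.

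Tested over the 206 blocks in a fit added after seeing the data, the Pol δ difference minus the Pol ε difference rose at 25 °C by 0.84 log2 in the libraries labelled stn1-226 rif1Δ against stn1-226 (SE 0.1, edgeR adjusted p = 1.1e-06), where 51% of all blocks were called in either direction. For rif1 deletion against wild type it rose by 0.66 log2 at 25 °C (SE 0.1, edgeR adjusted p = 2.2e-05, 48.5% of all blocks called) and by 0.44 log2 at 34 °C (SE 0.1, edgeR adjusted p = 0.00463, 17.5% of all blocks called). It was 0.22 log2 for the libraries labelled stn1-226 rif1Δ against stn1-226 at 34 °C (edgeR adjusted p = 0.217, 2.91% of all blocks called). With the class as a block the same value was called (edgeR adjusted p = 0.0203, 33% of all blocks called). With a background this large at 25 °C, the call is not particular to the region. In stn1-226 at 34 °C against 25 °C the value was 0.40 log2 (SE 0.1, edgeR adjusted p = 0.0128, 22.8% of all blocks called), and with libraries scaled by their median bin it was no longer called (0.38 log2, edgeR adjusted p = 0.176). That scaling also ended the 34 °C call of rif1 deletion (0.43 log2, edgeR adjusted p = 0.0657), as did leaving out bins with a copy elsewhere (0.38 log2, edgeR adjusted p = 0.0645). Each of these 2 calls was lost without single libraries: without stn1-226 25 °C Pol δ 2, stn1-226 34 °C Pol δ 2 or stn1-226 34 °C Pol ε 1 (adjusted p between 0.0588 and 0.0918 from edgeR), and without rif1 deletion Pol δ 2 or WT Pol δ 2 at 34 °C (0.0516 and 0.0519). Because each polymerase is measured in its own strain, polymerase and strain cannot be told apart.

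Taken alone, the Pol δ libraries at 25 °C rose by 0.55 log2 in the libraries labelled stn1-226 rif1Δ against stn1-226 (SE 0.085, edgeR adjusted p = 0.00055, 30.1% of all blocks called) and the Pol ε libraries fell by 0.32 log2 (SE 0.0483, edgeR adjusted p = 0.00188, 14.6% called). In rif1 deletion against wild type at 25 °C the Pol δ libraries rose by 0.37 log2 (edgeR adjusted p = 0.00944, 20.4% called) and the Pol ε libraries fell by 0.30 log2 (edgeR adjusted p = 0.00202, 39.8% called). At 34 °C the Pol ε libraries of rif1 deletion fell by 0.29 log2 (edgeR adjusted p = 0.0021, 3.4% called), and the Pol δ libraries were at 0.16 log2 (edgeR adjusted p = 0.258, 1.46% called). The Pol ε libraries of stn1-226 fell by 0.23 log2 against wild type at 34 °C (edgeR adjusted p = 0.00965, 3.4% called), beside -0.06 log2 in Pol δ libraries (edgeR adjusted p = 0.965, 0% called). The Pol ε libraries of stn1-226 at 34 °C also fell by 0.26 log2 against 25 °C (edgeR adjusted p = 0.0147, 4.37% called), beside 0.15 log2 in its Pol δ libraries (edgeR adjusted p = 0.25, 5.34% called).

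The left end of II carried fewer ends than the right end of II and the left end of I, each also taken as 60 kb. Over libraries its level ran from 0.834 to 1.33 with a median of 0.998, against 1.20 to 2.70 (median 1.95) at the right end of II, 1.04 to 1.76 (median 1.32) at the left end of I and 0.854 to 1.34 (median 1.03) at the right end of I. It was the lower one in 32 of 32 libraries against the right end of II, 32 of 32 against the left end of I and 25 of 32 against the right end of I. The share of bins with a copy elsewhere was 52.5% at the left end of II, 70.5% at the right end of II, 79.0% at the left end of I and 35.5% at the right end of I, and its part in these levels was not tested.

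The log2 ratio of this end to the mean of the other 3 ends averaged -0.26 ± 0.11 in stn1-226 and -0.59 ± 0.02 in wild type at 34 °C (SD, n = 4 libraries each), a difference of 0.33 with no overlap (exact permutation test, two-sided, p = 0.0286, which is the smallest this design allows, adjusted over 8 comparisons 0.114). In the libraries labelled stn1-226 rif1Δ at 34 °C it averaged -0.49 ± 0.01, against -0.26 ± 0.11 in stn1-226, a difference of -0.22 (exact permutation p = 0.0286, adjusted 0.114). At 34 °C the mean level of this end was 0.943 in stn1-226 and 1.05 in wild type. The right end of II stood at 1.4 and 2.26, the left end of I at 1.07 and 1.41, and the right end of I at 0.931 and 1.1. In the libraries labelled stn1-226 rif1Δ these ends stood at 1.02, 1.91, 1.31 and 1.07 in that order. The ratio was thus higher in stn1-226 with lower levels at the other ends, and not with a higher level here. The other 6 differences lay between -0.04 and 0.18, with exact permutation p between 0.114 and 0.8. None of the 8 passed after adjustment, and 4 libraries against 4 could not have given an adjusted p below the threshold unless several comparisons reached the smallest p together.

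Strand polarity gives the direction of forks. It compares, on a log2 scale, the strand that outward-moving forks label with the strand that inward-moving forks label, averaged over a Pol δ and a Pol ε library with the same replicate number, in windows of 3 kb. Outward is toward the telomere at the left end and inward toward the centromere, so a positive value means mostly outward forks and a negative value mostly inward ones. A drop from positive to negative along the chromosome marks a place from which forks leave both ways, and a rise from negative to positive marks a place where they meet. Of the 200 sharpest strand changes in the genome 199 were drops, counted without asking for a change of sign.

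The region was not crossed by forks of 1 direction. Of the 20 windows, 8 and 7 (34 and 25 °C) had a mean polarity above 0 in the libraries labelled stn1-226 rif1Δ, 7 and 11 in stn1-226, 8 and 7 in rif1 deletion and 11 and 10 in wild type. The range of the window means was 1.88 and 1.98 log2 in the libraries labelled stn1-226 rif1Δ, 1.99 and 2.57 in stn1-226, 1.60 and 1.76 in rif1 deletion and 2.31 and 2.11 in wild type, so the amplitude was smallest in rif1 deletion. Over all windows of the genome, the SD of polarity was also lowest in replicate 2 of rif1 deletion at 34 °C. It was 0.803 with each polymerase there, against 1.071 to 1.516 in wild type at 34 °C. The part of this in the values of the region was not tested. The window with the most outward forks was 48001 to 51000, over grt1 and fah1, in wild type at both temperatures and in stn1-226 at 25 °C, and 21001 to 24000, over SPBC1348.08C, in the 5 other conditions. The window with the most inward forks was 24001 to 27000, over SPBC1348.09 and SPBC1348.10C, in 6 conditions, and 45001 to 48000 or 54001 to 57000 in the libraries labelled stn1-226 rif1Δ at 34 °C and stn1-226 at 25 °C. The windows at 21001 to 24000 and 24001 to 27000 lie in copied sequence, so their ends may come from either place. In rif1 deletion both extremes, and so the range, are those of these windows at each temperature. At 54001 to 57000 in stn1-226 at 25 °C the Pol δ libraries stood at -0.27 and 1.23 and the Pol ε libraries at -2.3 and -2.36.

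**Figure D3:**
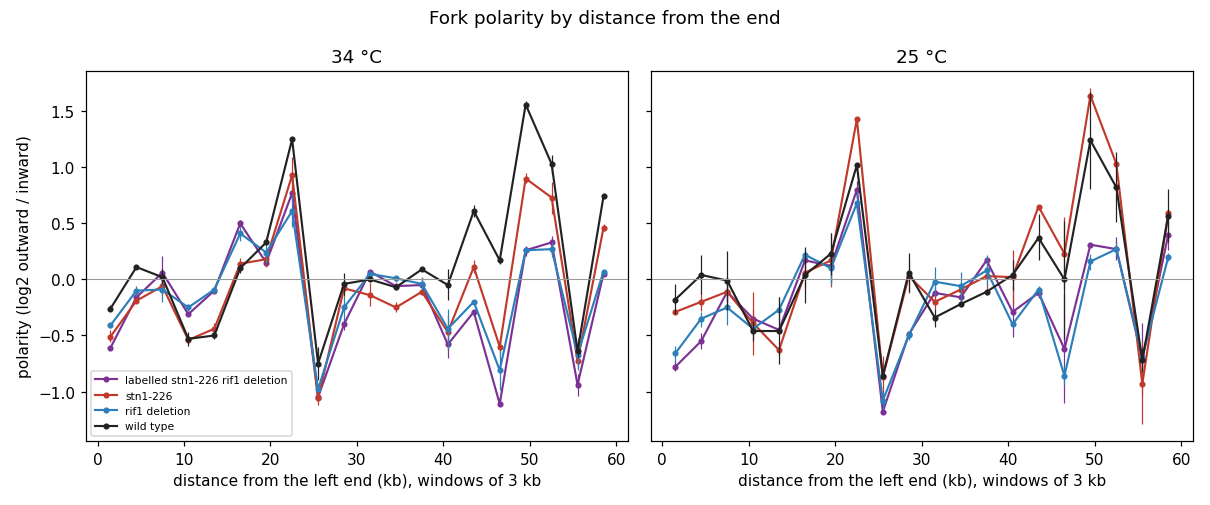
Strand polarity (log2, positive for outward forks) in 3 kb windows against distance from the left end in kb, as the mean of 2 replicate pairs per condition. The window at 48001 to 51000 lies at 0.26 and 0.31 in the libraries labelled stn1-226 rif1Δ and 0.26 and 0.16 in rif1 deletion (34 and 25 °C), and between 0.90 and 1.64 in stn1-226 and wild type.

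Outward forks through grt1 and fah1, about 50 kb from the end, had the largest polarity difference of the 20 windows in the 4 comparisons of a labelled rif1 deletion with stn1-226 or wild type. For stn1-226 against wild type the difference was larger elsewhere, at 45001 to 48000 at 34 °C (-0.78 log2, edgeR adjusted p = 1) and at 21001 to 24000 at 25 °C (0.41 log2, edgeR adjusted p = 0.937). In the window at 48001 to 51000 the libraries labelled stn1-226 rif1Δ had polarities of 0.21 and 0.30 at 34 °C and 0.31 and 0.32 at 25 °C. In stn1-226 they were 0.95 and 0.86 at 34 °C and 1.71 and 1.58 at 25 °C. In rif1 deletion they were 0.27 and 0.26 at 34 °C and 0.23 and 0.08 at 25 °C, and in wild type 1.54 and 1.59 at 34 °C and 1.67 and 0.81 at 25 °C. Every pair from a condition with a labelled rif1 deletion lay below every pair of stn1-226 and wild type, whose lowest value came from a Pol ε library of wild type at 25 °C (0.29, against 1.66 in the other Pol ε library).

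In rif1 deletion against wild type at 34 °C the polarity of that window fell by 1.30 log2 (SE 0.221, edgeR adjusted p = 0.00023). It also fell at 42001 to 45000, which reaches into the 3′ end of SPBPB8B6.02C, by 0.81 log2 (SE 0.15, edgeR adjusted p = 0.00056), where the pairs were -0.22 and -0.18 in rif1 deletion and 0.56 and 0.66 in wild type. At 51001 to 54000, over the start of grt1, it fell by 0.76 log2 (edgeR adjusted p = 0.00349), with pairs of 0.33 and 0.20 in rif1 deletion and 1.11 and 0.94 in wild type. In the innermost window of 3 kb, over fex2 and eno102, it fell by 0.67 log2 (edgeR adjusted p = 0.00631), with pairs of 0.08 and 0.05 in rif1 deletion and 0.74 and 0.74 in wild type. Between 42 and 60 kb, outward forks were thus fewer relative to inward ones in each of these windows.

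In that comparison 5 of the 20 windows (25%) were called, 4 lower and 1 higher, and 17.7% of all windows in the genome were called, 8.53% lower and 9.20% higher. The window called higher was 12001 to 15000, over SPBC1348.04 and SPBC1348.05, with pairs of -0.11 and -0.08 in rif1 deletion and -0.46 and -0.53 in wild type (0.40 log2, SE 0.138, edgeR adjusted p = 0.0489). It lies in copied sequence, and its call was lost with the replicate block (edgeR adjusted p = 0.0513) and without any one of the 8 libraries (0.34 to 0.46 log2). The 4 lower calls held without each library in turn. With Pol δ alone the calls at 48001 and 42001 remained, and with Pol ε alone that at 48001.

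At 25 °C, rif1 deletion against wild type gave the same count, 5 of 20 windows (25%), 4 lower and 1 higher, against 20.9% of all windows, 10.1% lower and 10.8% higher. Polarity at 48001 to 51000 fell by 1.09 log2 (SE 0.222, edgeR adjusted p = 0.00102), at 51001 to 54000 by 0.55 log2 (edgeR adjusted p = 0.0266) and at 42001 to 45000 by 0.46 log2 (edgeR adjusted p = 0.0321). The pairs at 51001 to 54000 were 0.33 and 0.22 in rif1 deletion and 1.14 and 0.51 in wild type, and those at 42001 to 45000 were -0.11 and -0.06 in rif1 deletion and 0.58 and 0.17 in wild type. The outermost window, 1 to 3000 with SPBC1348.15, fell by 0.49 log2 (SE 0.121, edgeR adjusted p = 0.00541), with pairs of -0.59 and -0.74 in rif1 deletion and -0.31 and -0.04 in wild type. It lies in sequence with a 100% identical copy at the right end of chromosome II, so its ends may come from either place. At 30001 to 33000, beside SPBC1348.11, polarity was higher by 0.33 log2 (edgeR adjusted p = 0.0437), with pairs of -0.14 and 0.11 in rif1 deletion and -0.42 and -0.26 in wild type.

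The 25 °C calls rest on fewer libraries than those at 34 °C. The window at 48001 was called without each of the 8 libraries in turn. That at 1 to 3000 was too, but its call was lost without both libraries of wild type replicate 2 (-0.35 log2, edgeR adjusted p = 0.075) and without both of rif1 deletion replicate 2 (-0.41 log2, edgeR adjusted p = 0.104). That at 51001 was lost without any one of WT Pol δ 1, WT Pol ε 1, or the 4 rif1 deletion libraries (-0.58 to -0.39 log2). That at 42001 was lost without any one of WT Pol δ 2, WT Pol ε 1 or the 4 rif1 deletion libraries (-0.49 to -0.23 log2), and that at 30001 without WT Pol δ 1, WT Pol ε 1, WT Pol ε 2, rif1 deletion Pol δ 2 or rif1 deletion Pol ε 2 (0.26 to 0.34 log2). With Pol ε alone none of the 5 was called, and the difference at 42001 was 0.00 log2 (edgeR adjusted p = 0.996). With the class as a block, the calls at 30001 (0.18 log2, edgeR adjusted p = 0.199) and 42001 (-0.35 log2, edgeR adjusted p = 0.0523) were lost. Without both libraries of rif1 deletion replicate 2, 1 of the 20 windows was called, against 12.3% of all windows, and with only the 2 conditions in the fit 0 were, against 15.7%.

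The libraries labelled stn1-226 rif1Δ, set against stn1-226 of the same listed background, showed lower polarity in windows of the same stretch at 25 °C. There 4 of 20 windows (20%) were called, all lower, against 21.1% of all windows, 10.1% lower and 11% higher, so the share in either direction was near that of the genome. Polarity at 48001 to 51000 fell by 1.33 log2 (SE 0.221, edgeR adjusted p = 0.00013). At 42001 to 45000 it fell by 0.76 log2 (edgeR adjusted p = 0.0007), with pairs of -0.07 and -0.17 in the libraries labelled stn1-226 rif1Δ and 0.63 and 0.66 in stn1-226. At 51001 to 54000 it fell by 0.76 log2 (edgeR adjusted p = 0.00272), with pairs of 0.17 and 0.38 in the libraries labelled stn1-226 rif1Δ and 1.06 and 1.0 in stn1-226. At 1 to 3000 it fell by 0.49 log2 (SE 0.121, edgeR adjusted p = 0.00535), with pairs of -0.82 and -0.73 in the libraries labelled stn1-226 rif1Δ and -0.28 and -0.31 in stn1-226. These 4 calls held without each library in turn, and the pairs of the compared conditions did not overlap in any of them. The call at 1 to 3000 was lost with only the 2 conditions in the fit (-0.49 log2, edgeR adjusted p = 0.184). That window lies in copied sequence. With Pol ε alone the calls at 1 to 3000 (-0.19 log2, edgeR adjusted p = 0.752), 42001 (-0.61 log2, adjusted p = 0.236) and 51001 (-0.61 log2, adjusted p = 0.159) were lost. With Pol δ alone that at 51001 was lost (-0.90 log2, edgeR adjusted p = 0.0519).

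At 34 °C the same comparison called 1 of 20 windows (5%), against 17.3% of all windows, 8.08% lower and 9.18% higher. It was 48001 to 51000, which fell by 0.65 log2 (SE 0.22, edgeR adjusted p = 0.0473). The call was lost without any one of the 8 libraries (-0.74 to -0.56 log2, edgeR adjusted p between 0.0536 and 0.174). With the class as a block 7 windows were called, where 38.9% of all windows were. The comparisons of the libraries labelled stn1-226 rif1Δ with stn1-226 and those of rif1 deletion with wild type share no library.

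**Figure D4:**
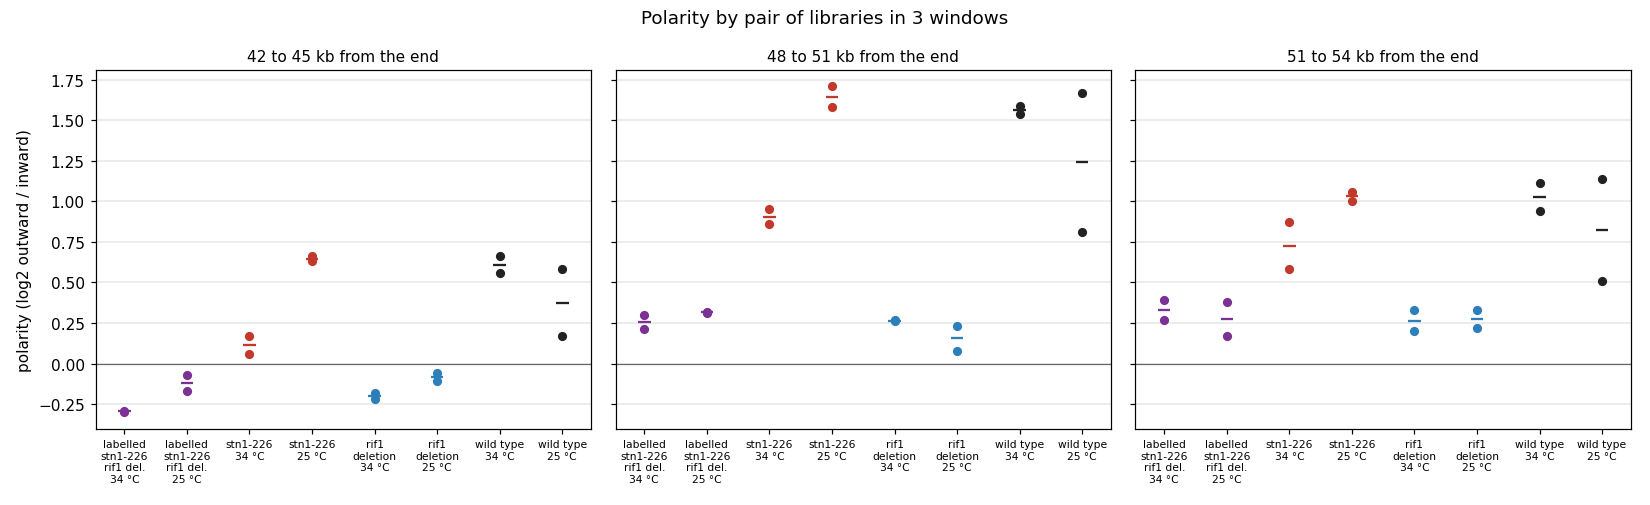
Strand polarity (log2) of each replicate pair in the windows at 42001, 48001 and 51001, by condition, from stn1-226 rif1Δ on the left to wild type on the right. Points are pairs and dashes their mean. At 48001 to 51000 the pairs of conditions with a labelled rif1 deletion lie between 0.08 and 0.32, below all pairs of stn1-226 and wild type, which lie between 0.81 and 1.71.

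stn1-226 against wild type gave 0 called windows of 20 at each temperature, where 0% of all windows were called by edgeR. At an unadjusted p under 0.05, 3 of the 20 (15%) passed at 34 °C, against 0.885% of all windows, and 0 at 25 °C, against 3.83%. The lowest p at 34 °C belonged to 42001 to 45000, with pairs of 0.06 and 0.17 in stn1-226, against 0.56 and 0.66 in wild type (-0.50 log2, SE 0.15, unadjusted p = 0.00362 from edgeR, adjusted p = 1), and to 48001 to 51000 (-0.66 log2, SE 0.22, unadjusted p = 0.00706, adjusted p = 1). The pairs did not overlap in either window. At 25 °C the same windows stood at 0.27 and 0.40 log2 (edgeR adjusted p = 0.937 each), and the sign at 48001 turned (-0.03 log2) without wild type replicate 2. In that fit wild type at 25 °C rests on replicate 1, which is in the class least like the other libraries.

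Between 34 °C and 25 °C, stn1-226 had 0 called windows of 20, against 0.598% of all windows, and 2 (10%) at an unadjusted p under 0.05, against 14.3% of all windows. The lowest p again fell on 42001 to 45000, with pairs of 0.06 and 0.17 at 34 °C and 0.63 and 0.66 at 25 °C (-0.53 log2, edgeR adjusted p = 0.115), and on 48001 to 51000 (-0.74 log2, edgeR adjusted p = 0.131). With the class as a block 4 windows were called in this comparison, where 39.8% of all windows were, these among them (-0.45 and -0.61 log2, edgeR adjusted p = 0.0142 and 0.0324). Wild type had 0 called windows between temperatures, where 0% of all windows were called, and 1 (5%) at an unadjusted p under 0.05, against 1.6% of all windows. Its lowest p was at 30001 to 33000, with pairs of 0.01 and -0.02 at 34 °C and -0.42 and -0.26 at 25 °C (0.34 log2, edgeR adjusted p = 1). The difference between the temperature effects of stn1-226 and wild type was -0.77 log2 at 42001 to 45000 and -1.06 log2 at 48001 to 51000 (edgeR adjusted p = 0.993 each, 0% of all windows called, 2 of 20 at an unadjusted p under 0.05, against 1.96% of all windows). Leaving out each library in turn, the differences ran from -1.01 to -0.53 and from -1.40 to -0.72 log2. They were -1.01 and -1.40 log2 without wild type 25 °C Pol ε 1. That fit rests on Pol ε 2 for this group, at -0.51 and 0.29 in these windows, against 0.44 and 1.66 in Pol ε 1. stn1-226 at 34 °C takes part in several of these comparisons, so they are not independent.

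The windows at the 2 edges of the region complete the profile. At 1 to 3000, the pairs of the libraries labelled stn1-226 rif1Δ were -0.59 and -0.63 at 34 °C and -0.82 and -0.73 at 25 °C, against -0.56 and -0.45 and then -0.28 and -0.31 in stn1-226, -0.43 and -0.39 and then -0.59 and -0.74 in rif1 deletion, and -0.23 and -0.28 and then -0.31 and -0.04 in wild type. All pair means were below 0, as were all single libraries but stn1-226 Pol δ 1 (0.01) and wild type Pol δ 2 (0.12) at 25 °C. This window lies in copied sequence, so its ends may come from either place. In the innermost window, which ends at 60000, the pairs of the libraries labelled stn1-226 rif1Δ were 0.05 and 0.06 at 34 °C and 0.26 and 0.55 at 25 °C, against 0.49 and 0.43 and then 0.54 and 0.63 in stn1-226, 0.08 and 0.05 and then 0.16 and 0.24 in rif1 deletion, and 0.74 and 0.74 and then 0.81 and 0.33 in wild type. All pair means were above 0, but the polymerases differed. Pol δ libraries lay between 0.17 and 1.69, and Pol ε libraries between -0.41 and 0.27, with 11 of 16 below 0. The 2 polymerases thus did not give the same sign in this window. They also differed in sign in other windows, such as 9001 to 12000 in wild type at 34 °C (0.25 and 0.22 in Pol δ, -1.19 and -1.4 in Pol ε). At 45001 to 48000 the same condition had 1.34 and 0.72 in Pol δ and -0.93 and -0.44 in Pol ε. In such windows the mean of the polymerases is a weak guide to fork direction.

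Places where forks diverge were read as peaks of the divergence step, the polarity of the 10 bins on the end side minus that of the 10 bins on the centromere side, above 0.5 log2 in the mean of the wild-type pairs. They are described without a test, since they were found in these values. In wild type there were 6: at 9600 beside ftm5, 24600 between SPBC1348.08C and SPBC1348.09, 31500 upstream of SPBC1348.11, 37800 between SPBC1348.12 and ght7, 44400 outward of SPBPB8B6.02C and 52800 between grt1 and SPBPB8B6.05C. All 6 lie between annotated protein-coding genes. Those at 9600 and 24600 lie in copied sequence. Searched condition by condition, 5 of these places were found within 300 bp in every condition, and the first within 1 kb in all but rif1 deletion at 34 °C, where it stood at 0.39 and 0.44.

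The steepest switch of wild type was at 52800, in the last of the sequences printed earlier. In the libraries labelled stn1-226 rif1Δ its step was 1.60 and 1.87 at 34 °C and 1.89 and 1.44 at 25 °C, against 2.30 and 2.01 and then 3.34 and 3.03 in stn1-226, 1.58 and 1.41 and then 1.35 and 1.45 in rif1 deletion, and 2.20 and 2.40 and then 2.39 and 2.14 in wild type. Pairs of conditions with a labelled rif1 deletion lay below all others. At 31500, in a stretch with 6 runs of A and T, the longest of 30 bases, the mean step was 1.06 and 0.92 in the libraries labelled stn1-226 rif1Δ (34 and 25 °C), 1.49 and 1.39 in stn1-226, 0.74 and 0.48 in rif1 deletion and 1.32 and 1.25 in wild type. Here too the conditions with a labelled rif1 deletion were lower. At 24600 the mean step was 2.01 and 1.96 in the libraries labelled stn1-226 rif1Δ, 2.25 and 2.41 in stn1-226, 1.67 and 1.83 in rif1 deletion and 2.14 and 1.98 in wild type.

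At 37800 the mean step was 1.33 and 1.24 in the libraries labelled stn1-226 rif1Δ, 1.26 and 1.47 in stn1-226, 0.98 and 0.97 in rif1 deletion and 1.02 and 0.80 in wild type. At 44400 it was 1.20 and 0.81, 1.12 and 0.86, 0.92 and 1.06, and 0.84 and 0.75 in the same order of conditions. At 9600 it was 0.57 and 0.50, 0.69 and 0.58, 0.41 and 0.46, and 0.63 and 0.56, so at each temperature each labelled rif1 deletion was below its comparison, with overlapping pairs except in rif1 deletion and wild type at 34 °C. The pairs of a condition differed widely at 44400, as in the libraries labelled stn1-226 rif1Δ at 25 °C (1.31 and 0.32), so no order of genotypes can be read there.

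Rises of polarity, found by the same search with the sign of the step turned, lay at 15000 in SPBC1348.05, 21000 beside SPBC1348.07, 27900 in SPBC1348.10C, 34500 in SPBC1348.11, 40800 beside ght7, 48000 in grt1 and fah1 and 57000 in fex2. A change of sign was required neither here nor for the divergence places. At 21000 the wild-type means were above 0 on both sides (34 and 25 °C): 0.33 and 0.23 at 18001 to 21000, 1.25 and 1.02 at 21001 to 24000. Outward forks were thus mostly seen on both sides of that place. The places at 15000, 21000 and 27900 lie in copied sequence. At 48000 the mean step was -1.37 and -0.93 in the libraries labelled stn1-226 rif1Δ, -1.51 and -1.41 in stn1-226, -1.07 and -1.01 in rif1 deletion and -1.39 and -1.25 in wild type. At 34500 it was -0.98 and -1.17, -1.20 and -1.51, -0.62 and -0.63, and -1.15 and -1.09 in the same order. The values of rif1 deletion were nearest to 0 at 34500, and those of every condition were below 0 at all 7 places. The bins are 300 bp wide and the flanks 3 kb, so sites closer than that cannot be separated.

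**Figure D5:**
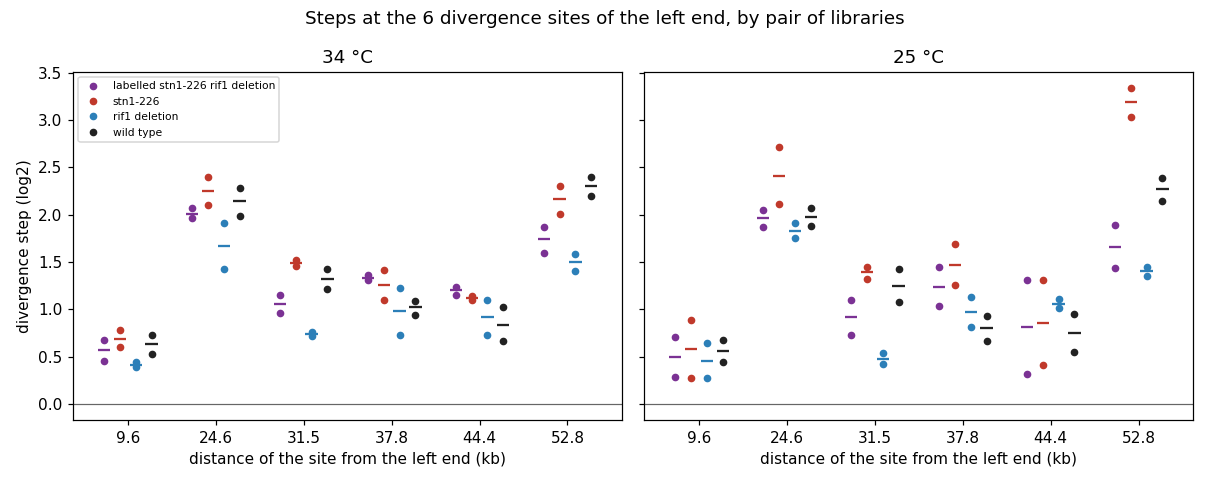
Divergence step (log2) of each replicate pair at the 6 divergence places of wild type, placed by distance from the left end in kb, by condition from stn1-226 rif1Δ to wild type, with dashes for the mean of 2 pairs. At 52800 the pairs of conditions with a labelled rif1 deletion lie between 1.35 and 1.89, below those of stn1-226 and wild type, which lie between 2.01 and 3.34.

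All cultures were bulk populations, so fewer cells in which forks ran outward and an earlier arrival of inward forks in each cell cannot be told apart.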

How the data were processed

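Pu-seq fragment ends were analysed in 32 libraries. Per bin of 300 bp and strand, the authors deposited whole-number counts of fragment ends without scaling, in 64 files (1 per strand and library). Per the submitters' processing notes reads were aligned with Bowtie2, and per the labels' protocols DNA was cleaved with alkali and selected by size. For the aligner's version, its handling of repeats and the build, the answer is not given in the sources used here. Bin positions were checked against ASM294v3 (RefSeq): 29 of 32 libraries matched the mean of the others best with no shift along chromosome II (r between 0.423 and 0.866), and the mean strand ratio followed base content best with no shift (33.1% explained, against at most 1.92% beyond 3 bins).

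Levels are ends of both strands over the library's median bin. Polarity used a pseudocount of 1 end for display and raw counts for tests. Testing used edgeR 4.0.16 (quasi-likelihood, TMM, R 4.3.3) on 41813 bins with a mean of at least 10 ends, 4183 windows of 3 kb and 206 blocks of 60 kb. The fit held 16 groups (16 residual degrees of freedom), contrasts averaged Pol δ and Pol ε, and Benjamini-Hochberg adjustment ran over all features with a threshold of 0.05. For polarity the counts of both strands were separate columns, with the library as a block. Alternatives used DESeq2 1.42.0, limma 3.58.1, other scalings, minimums and windows, single polymerases, left-out libraries and bins without copies. The end comparison is an exact permutation test in scipy 1.17.1. Scripts were tested on simulated data. Copies were found with blastn 2.17.0 (identity of at least 95% over 300 bp) and by shared 31-mers. Tables and figures used Python 3.11.15, numpy 2.4.6, pandas 2.3.3 and matplotlib 3.10.9.

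Per comparison the text names up to 4 called bins and 4 called windows in each direction by size of the difference, or the 2 of each with the lowest p where none was called, the extreme bins, the steepest strand change in wild type, the edge windows and the bands of 10 kb. The members, lists and tests were chosen with earlier results of these data known. The deepest library held 24104591 ends and the least deep 2045490, whose median bin of 39 ends limits what single bins can show.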

Additional observations from a re-analysis of the deposited data

Results flagged for a closer look

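Among the 4 libraries of a condition, 3 values stood far from the other 3 by Dixon's criterion. It was applied to 10 level measures in 8 conditions, 80 groups in all, and chance alone meets it in about 1 in 20 groups, or 4 of 80. In the libraries labelled stn1-226 rif1Δ at 34 °C, Pol ε replicate 2 was the lowest over the whole region (0.939, where the others lay at 1.04 to 1.05) and between 20 and 30 kb from the end (0.953). In rif1 deletion at 34 °C, Pol δ replicate 2 was the highest between 40 and 50 kb (1.08, where the lowest library lay at 0.952).

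The change in the level of the region differed between Pol δ and Pol ε libraries by an edgeR test of that difference in 4 comparisons, in a fit added after seeing the data. It was 0.84 log2 (adjusted p = 1.1e-06 from edgeR, 51% of all blocks called) for the libraries labelled stn1-226 rif1Δ against stn1-226 at 25 °C. For rif1 deletion against wild type it was 0.66 log2 (adjusted p = 2.2e-05, 48.5% called) at 25 °C and 0.44 log2 (adjusted p = 0.00463, 17.5% called) at 34 °C. For stn1-226 at 34 °C against 25 °C it was 0.40 log2 (adjusted p = 0.0128, 22.8% called). The calls at 0.44 and 0.40 log2 were lost with median-bin scaling and without single libraries. With such shares the calls at 25 °C are not particular to the region.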

How the results depend on the processing

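Of 701 values recomputed under other settings, 595 kept their direction and side of the threshold (counts within 1.5 times), 19 changed sign, 28 counts moved further, 47 values lost a call and 12 gained one. The causes were not tested unless the setting holds fewer libraries or bins. Replicate numbers are shared between groups. At 34 °C libraries with the same number deviated together (r between 0.703 and 0.84), at 25 °C those of stn1-226 and wild type did the opposite (r = -0.779 and -0.703) and those of rif1 deletion and wild type neither (0.059 and 0.131). With a replicate block the bins called at 25 °C in rif1 deletion against wild type were 21 (13 higher, 8 lower; 5.68% of all bins called), and no other count moved by over 1.5 times. With the crossed pairing, which is the class block, 1 bin and 0 windows were called for stn1-226 against wild type at 25 °C (0.237% of all bins and 0.861% of all windows).

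For bins at 25 °C in rif1 deletion against wild type, 0 were called with the class block, single-copy bins, Pol δ or Pol ε alone or only these groups, 15 without wild type replicate 2 (5.96% of all bins), 32 with DESeq2 (11.6%), and 0 to 53 leaving out libraries in turn (53 without rif1 deletion Pol ε 1, 9 without WT Pol ε 2, 4 without rif1 deletion Pol δ 2, 0 without each of the other 5). Window calls with the class block were 7 and 8 (34 and 25 °C) for the libraries labelled stn1-226 rif1Δ against stn1-226, 1 for stn1-226 against wild type at 34 °C, 4 for stn1-226 between temperatures and 9 for rif1 deletion at 34 °C, where the class block called 38.9, 45.2, 0.311, 39.8 and 43.2% of all windows. With Pol δ alone they were 0 for stn1-226 rif1Δ at 34 °C (5.71% of all windows), 2 for stn1-226 between temperatures (10.4%) and 2 for rif1 deletion at each temperature (6.62 and 12.9%). With Pol ε alone they were 0 and 1 for stn1-226 rif1Δ and 1 and 0 for rif1 deletion (34 and 25 °C), against 9.16, 7.55, 6.07 and 6.98% of all windows. For stn1-226 rif1Δ at 34 °C they were 5 with only these groups (32.7% of all windows), 2 with limma on scaled ratios (24.2%) and 0 leaving out any library. For rif1 deletion, windows of 6 kb gave 3 of 10 at each temperature (22.7 and 27% of all windows). At 25 °C its count was 1 without replicate 2 (12.3%), 0 with only these groups (15.7%) and 2 to 7 leaving out libraries in turn (2 without WT Pol ε 1, rif1 deletion Pol δ 2 or Pol ε 2, 3 without rif1 deletion Pol δ 1 or Pol ε 1). In the temperature interaction the window at 42001 ran from -1.01 to -0.53 log2 and that at 48001 from -1.40 to -0.72 leaving out libraries in turn.

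For the 60 kb block, stn1-226 against wild type at 34 °C passed at -0.15 log2 with the class block or only these groups and at -0.23 with Pol ε alone. Pol δ and Pol ε alone gave 0.15 and -0.26 for stn1-226 between temperatures, 0.55 and -0.32 for stn1-226 rif1Δ at 25 °C, 0.16 and -0.29 for rif1 deletion at 34 °C and 0.37 and -0.30 at 25 °C. Pol ε alone gave -0.02 for stn1-226 rif1Δ at 34 °C and -0.03 for wild type between temperatures, and Pol δ alone 0.05 for the interaction. Wild type between temperatures was -0.01 with median-bin scaling or single-copy bins and -0.01 to 0.07 leaving out libraries in turn. Single-copy bins gave -0.08 for rif1 deletion at 25 °C. Against the other ends, 30 kb gave 0.05 for stn1-226 rif1Δ at 25 °C (-0.06 to 0.02 leaving out libraries) and 0.02 for rif1 deletion at 25 °C (-0.08 to 0.02), and single-copy bins gave -0.05 for stn1-226 between temperatures. Among named features, Pol ε alone turned the bins at 20701 and 21601 for stn1-226 rif1Δ at 25 °C (-0.03 and -0.11), the window at 30001 for wild type between temperatures (-0.01) and that at 42001 for rif1 deletion at 25 °C (0.00). The window at 42001 for wild type between temperatures was -0.18 with Pol δ alone and -0.00 to 0.47 leaving out libraries, and that at 48001 for stn1-226 at 25 °C -0.03 without wild type replicate 2.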

Other observations

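The 8 bins between 12901 and 15300, which cover most of the transporter gene SPBC1348.05 and the stretch before it, were low in some sets of libraries. The interval was chosen after its values were seen, so they are given without a test. Relative to the median bin, the libraries labelled stn1-226 rif1Δ had 1.03 and 0.991 (Pol δ) and 0.695 and 0.643 (Pol ε) at 34 °C, and 1.13 and 0.99 (Pol δ) and 0.577 and 0.604 (Pol ε) at 25 °C. stn1-226 had 0.654 and 0.6 (Pol δ) and 0.934 and 0.844 (Pol ε) at 34 °C, and 0.564 and 0.548 (Pol δ) and 0.952 and 0.926 (Pol ε) at 25 °C. rif1 deletion lay between 0.744 and 1.24 and wild type between 0.814 and 1.18. The low values were in 1 polymerase strain of each stn1-226 genotype, at both temperatures, and in the other polymerase for each genotype.

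The interval has copies at the right ends of chromosome II (99.6% identical) and chromosome I (99.3%). At the copy on chromosome II the libraries labelled stn1-226 rif1Δ had 1.09 and 1.14 (Pol δ) and 0.846 and 0.754 (Pol ε) at 34 °C, where stn1-226 had 0.728 and 0.754 (Pol δ) and 0.968 and 0.966 (Pol ε). The same sets of libraries were low there. Ends from the copies cannot be told apart by these counts, and how many copies each strain carries was not tested.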
